A study of Mus musculus with 4 samples.

Results

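The MHC class II presentation genes examined here were Cd74, H2-Aa, H2-Ab1, H2-Eb1, H2-DMa, H2-DMb1 and Ciita, 7 of the 24527 gene symbols in the table of read counts. They were chosen by symbol, and all 7 were present. RNA was sequenced from 4 sources of the mouse melanoma line B16F10, all labelled wild-type, with 1 library each. These were B16F10 cells grown alone in 2D (2D monoculture), grown with NIH/3T3 fibroblasts in 2D (2D co-culture) or grown with the same fibroblasts as hanging-drop spheroids (spheroid), and tumors that B16F10 cells formed under the skin of 1-year-old female C57BL/6 mice (tumor). The methods describe a GFP-labelled B16F10 line (Linterna) that was sorted from the cultures and the tumors, whereas the label of the tumor library names snap frozen tumor. All groups share this 1 cell line. As no condition had a second library, no difference between conditions was tested, and the intervals given below are 95% intervals that cover counting error only. Without molecular identifiers, reads are not independent molecules.

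MHC class II molecules display peptides from endosomes to CD4+ T cells. Each is a pair of an alpha and a beta chain that assembles on the invariant chain, encoded by Cd74, and the H2-DM dimer later exchanges the remaining fragment of the invariant chain for peptide. Dendritic cells and B cells carry these molecules all the time, while many other cells, melanoma cells among them, can make them after interferon gamma, which induces the master co-activator Ciita. CIITA does not bind DNA itself. It docks on RFX, CREB and NF-Y proteins that sit on the X and Y boxes of class II promoters.

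Promoters are shown first, because members that share them could be set beside each other in the count data. RefSeq promoter windows on GRCm38.p6, the build that mm10 stands for, were at hand for 4 members (H2-Aa, H2-Eb1, H2-DMb1 and H2-DMa). The 120 bases before the transcript start are given 5′ to 3′ on the strand of the gene, with matches to 3 short motifs in capitals. The motifs were TGATTGG (core of the Y box), ACTGATG (core of the X box) and TGACGTC (core of the cAMP response element), searched on both strands, and the last overlaps its own reverse complement in H2-Aa. They were picked after these sequences had been read.
H2-Aa, chr17:34287824-34287943, minus strand: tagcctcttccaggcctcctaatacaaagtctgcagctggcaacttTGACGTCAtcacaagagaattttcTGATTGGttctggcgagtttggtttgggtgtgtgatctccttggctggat
H2-Eb1, chr17:34305747-34305866, plus strand: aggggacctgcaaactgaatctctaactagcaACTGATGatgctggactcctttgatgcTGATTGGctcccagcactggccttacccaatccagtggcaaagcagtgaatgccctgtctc
H2-DMb1, chr17:34153071-34153190, plus strand: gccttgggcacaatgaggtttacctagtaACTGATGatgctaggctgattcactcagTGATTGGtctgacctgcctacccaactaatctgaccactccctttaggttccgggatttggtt

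All 3 stretches held a Y box core, which began 50 bases before the start in H2-Aa, 61 in H2-Eb1 and 63 in H2-DMb1. The second motif lay upstream of it at a like distance, with 24, 27 and 28 bases between the first letters of both. Over all 32851 promoter windows in the reference, 7.82% held the Y box core, 3.19% the X box core, 3.21% the cAMP response core and 0.53% the Y box core with either of the others. Among the other windows searched, those of the class II chains H2-DMb2, H2-Eb2, H2-Oa and H2-Ob also held the Y box core, and H2-Eb2 held the X box core too, 27 bases upstream. Outside class II, the class I gene H2-D1 held both the X and the Y box core, H2-K1 and Rfx5 held the Y box core, and B2m, Ctss and Rfxank held no match. The Y box matches of H2-D1, H2-K1 and Rfx5 were all on the strand opposite to the gene, unlike those of the class II genes. In H2-K1 they lay at the start, at 8 to 14 bases in 1 window and -6 to 0 in the other. These letters were not found in either window of H2-DMa. Such matches describe the sequence and do not show binding.

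**Figure D1:**
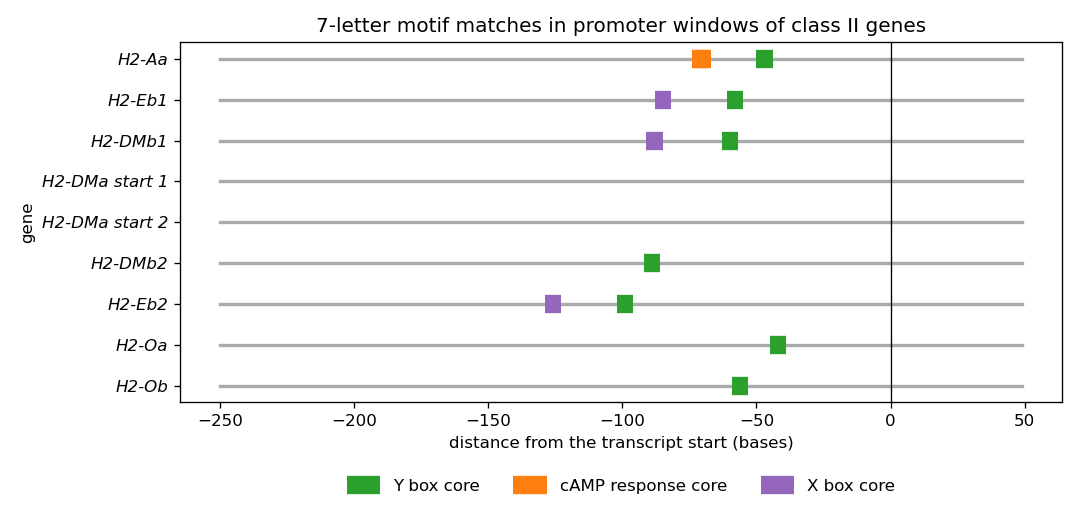
Matches to the 3 motifs, drawn as coloured blocks by their distance in bases from the transcript start (0), in promoter windows of 250 bases before to 50 after the start for 8 class II genes. The Y box core lies between the other motif and the start in H2-Aa, H2-Eb1, H2-DMb1 and H2-Eb2, and both starts of H2-DMa are empty.

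Every member was highest in the tumor library, and the members fell into 3 patterns among the cultures. The chain genes H2-Aa, H2-Ab1 and H2-Eb1, together with Ciita, had at most 35 reads in any culture library. The H2-DM genes had between 179 and 623 reads in each culture. Cd74 ranged among cultures from 94 reads in the 2D co-culture to 4685 in the spheroid, a 41.9-fold gap in level. Of the chain genes, H2-Aa was 7.26-fold and H2-Ab1 6.53-fold higher in 2D co-culture than in 2D monoculture, on counts of only 4 to 35 reads. H2-Eb1 did not differ among the cultures beyond counting error. Levels are given below as CPM, the usual counts scaled to library size, here with TMM factors from edgeR over the 4 libraries.

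**Figure D2:**
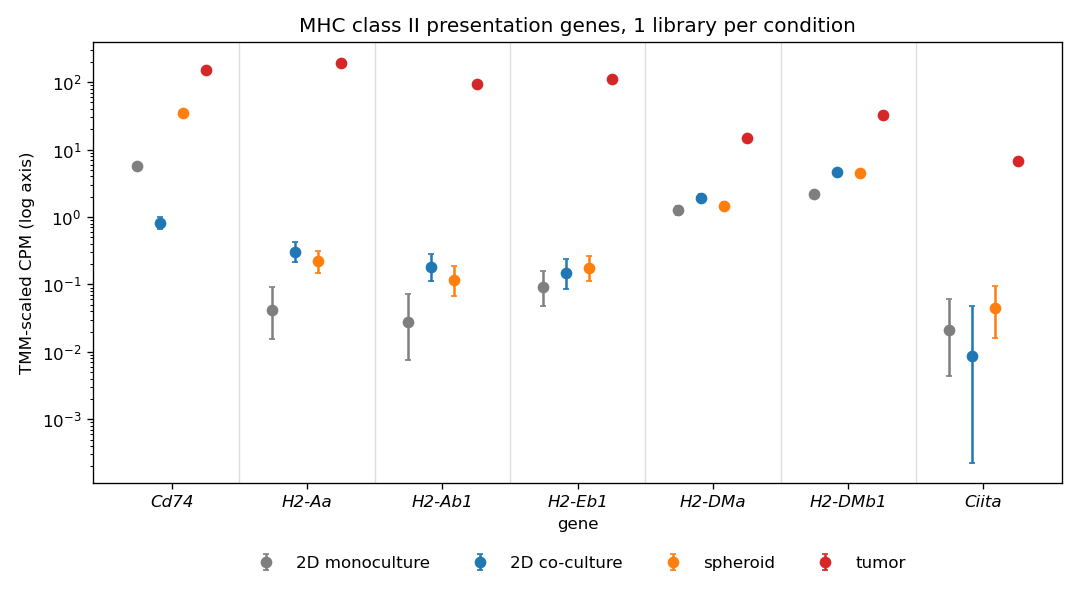
TMM-scaled CPM on a log axis for each of the 7 genes in the 4 libraries, with bars for 95% exact intervals of counting error. The tumor library is at the top for every gene, and the spheroid stands clear of the 2D cultures for Cd74 alone.

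Ciita sits on chromosome 16 (10480059 to 10528418, GRCm38, GENCODE annotation) and encodes the co-activator on which classical class II transcription depends. Reads of it numbered 3, 1 and 6 from 2D monoculture, 2D co-culture and spheroid cells, against 1096 from the tumor. These counts came to 0.0211, 0.00873, 0.0441 and 6.75 CPM. The intervals of the 3 cultures overlapped, so no difference among them was detectable at this depth. Between tumor and 2D monoculture the log2 ratio was 8.32 (interval 6.77 to 10.60). Dexi, on the opposite strand, overlaps Ciita in the annotation and had 7.85 CPM in the tumor and 9.92 to 15.8 CPM in the cultures, an order of tumor and cultures opposite to that of Ciita.

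H2-Aa (chromosome 17, 34282744 to 34287823) encodes the alpha chain and H2-Ab1 (34257689 to 34269419) the beta chain of I-A, the class II molecule that C57BL/6 mice display. H2-Aa had 6 reads in the 2D monoculture, 35 in the 2D co-culture, 30 in the spheroid and 31531 in the tumor, or 0.0421, 0.306, 0.22 and 194 CPM. H2-Ab1 had 4, 21, 16 and 15372 reads in the same order, or 0.0281, 0.183, 0.117 and 94.7 CPM. For both genes the order was therefore 2D monoculture, spheroid, 2D co-culture and tumor, with overlapping intervals of spheroid and 2D co-culture. For H2-Ab1 the level intervals of 2D monoculture and spheroid overlapped as well. The spheroid exceeded the 2D monoculture by a log2 ratio of 2.39 (1.10 to 3.94) for H2-Aa and 2.07 (0.43 to 4.10) for H2-Ab1. The proportion of both chains did not differ beyond counting error among the libraries. There were 1.5 H2-Aa reads per H2-Ab1 read in the 2D monoculture (0.356 to 7.23), 1.67 in the 2D co-culture (0.944 to 3.01), 1.88 in the spheroid (0.99 to 3.68) and 2.05 in the tumor (2.01 to 2.09).

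H2-Eb1 (chromosome 17, 34305867 to 34316674) encodes the beta chain of I-E. Its 13 reads from 2D monoculture, 17 from 2D co-culture and 24 from spheroid cells stood against 17947 from the tumor. On the CPM scale these were 0.0912, 0.148, 0.176 and 111. The 3 culture libraries did not differ beyond counting error. H2-Ea-ps, the I-E alpha chain locus that is disrupted in C57BL/6 mice, had 0 reads in all 4 libraries, with an exact upper limit of 0.0227 CPM in the tumor. So the tumor library held abundant reads of a beta chain whose alpha partner was not detected.

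The H2-DM genes encode the peptide editor of endosomes. H2-DMb1 (chromosome 17, 34153072 to 34160230) had 312 reads in the 2D monoculture, 542 in the 2D co-culture, 623 in the spheroid and 5370 in the tumor. Its levels were 2.19, 4.73, 4.58 and 33.1 CPM, so that the spheroid and the 2D co-culture overlapped and both exceeded the 2D monoculture by slightly over 2-fold before a pseudocount, with log2 ratios of 1.06 (0.86 to 1.26) and 1.11 (0.91 to 1.32). H2-DMa (34119541 to 34139101), the alpha chain, had 179, 217, 197 and 2377 reads, or 1.26, 1.90, 1.45 and 14.6 CPM. For H2-DMa the level intervals of neighbouring cultures overlapped, but those of 2D co-culture (1.65 to 2.16 CPM) and spheroid (1.25 to 1.66 CPM) only barely. The 2D co-culture lay above the 2D monoculture by 0.59 on the log2 scale (0.30 to 0.89). Relative to the tumor, the H2-DM genes were at 6.62% to 14.3% in the cultures, while the chain genes and Ciita were all under 1%. The counting could mix H2-DMb1 with its close copy H2-DMb2, which had 0.204, 0.952, 0.382 and 2.83 CPM. H2-DMa overlaps Brd2 on the opposite strand in the annotation, and Brd2 had 480 CPM in the 2D monoculture, 641 in the 2D co-culture, 829 in the spheroid and 166 in the tumor. As no setting for strand is given, reads of H2-DMa and Brd2 cannot be told apart where they overlap.

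Cd74 (chromosome 18, 60803848 to 60812652) encodes the invariant chain, which blocks the peptide groove in the endoplasmic reticulum and guides class II molecules to endosomes. The 2D monoculture had 824 reads, the 2D co-culture 94, the spheroid 4685 and the tumor 25009. These were 5.78 CPM (5.40 to 6.19), 0.821 CPM (0.663 to 1.005), 34.4 CPM (33.4 to 35.4) and 154 CPM (152 to 156). No intervals overlapped, and the order was 2D co-culture, 2D monoculture, spheroid and tumor. Ciita had this order too, but with overlapping intervals of the cultures. Spheroid to 2D monoculture gave a log2 ratio of 2.57 (2.47 to 2.68), a 5.95-fold higher level. In the 2D co-culture the level fell short of the 2D monoculture 7.04-fold, with a log2 ratio of -2.82 (-3.14 to -2.51). Between spheroid and 2D co-culture, both grown with fibroblasts, the difference was 41.9-fold, or 5.39 on the log2 scale (5.09 to 5.70). Fibroblast genes differed between the same libraries. The 9 genes of that list summed to 17.6, 679 and 36.5 CPM for 2D monoculture, 2D co-culture and spheroid, with none at 0. Of these, 5 of 9 were called over 2-fold higher in 2D co-culture than in 2D monoculture (3.79% of all genes). In the spheroid, 6 of 9 were called lower than in 2D co-culture (8.46% of all genes). Col1a2, a collagen chain of fibroblasts, had 2.97, 514 and 4.05 CPM in that order. The part of fibroblast RNA in the Cd74 level was not tested. The tumor was 4.48-fold above the spheroid for Cd74. Genes with a GC content and length like those of Cd74 had a median log2 ratio of 0.60 for spheroid to 2D monoculture, and with this median removed the ratio of Cd74 was 1.97.

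Some ratios of genes within a library, which no scaling enters, set the tumor apart from the cultures, namely Cd74 to H2-Aa and H2-DMb1 to H2-Ab1. In the tumor there were 0.793 Cd74 reads per H2-Aa read (0.78 to 0.806). The 2D co-culture had 2.69 (1.80 to 4.08), the 2D monoculture 137 (62.8 to 375) and the spheroid 156 (109 to 232). The 2D monoculture and the spheroid overlapped, and the 2D co-culture lay between them and the tumor. Cd74 made up 83.9% of the reads of the 7 genes in the spheroid, 61.4% in the 2D monoculture, 25.3% in the tumor and 10.1% in the 2D co-culture, where H2-DMb1 made up 58.5%. H2-DMb1 reads per H2-Ab1 read likewise numbered 0.349 in the tumor and between 25.8 and 78.0 in the cultures. For other pairs the tumor lay within the span of the cultures. H2-DMa reads per H2-DMb1 read numbered 0.443 in the tumor and 0.316 to 0.574 in the cultures. H2-Eb1 reads per H2-Ab1 read numbered 1.17 in the tumor and 0.81 to 3.25 in the cultures.

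**Figure D3:**
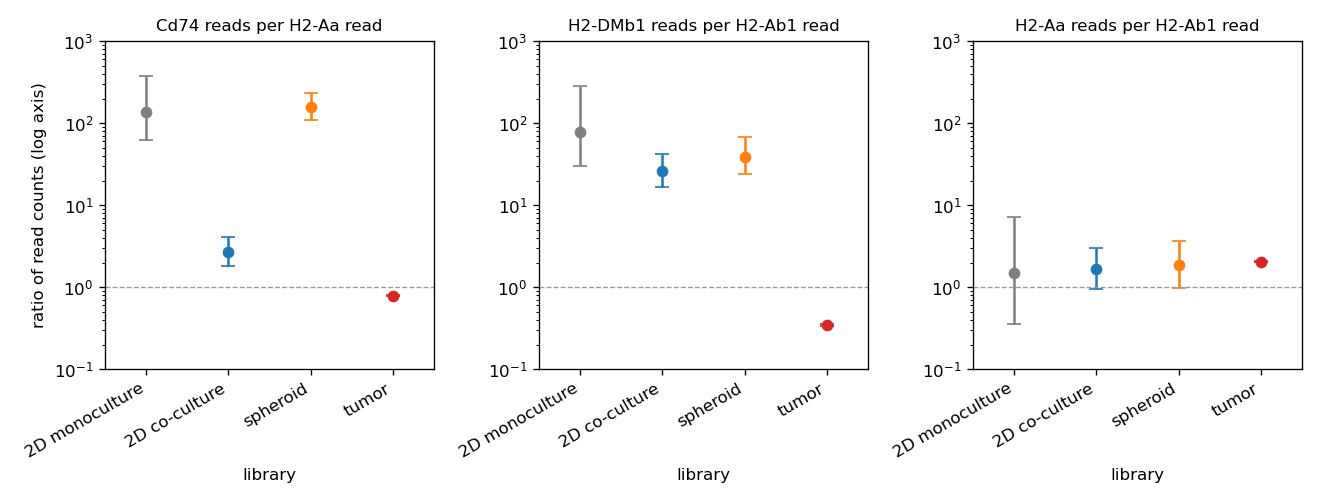
Ratios of read counts of gene pairs within each library on a log axis, with 95% exact intervals and a dashed line at a ratio of 1. Cd74 per H2-Aa is 0.793 in the tumor and 156 in the spheroid, whereas the intervals of H2-Aa per H2-Ab1 overlap among all 4 libraries.

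Levels can be compared between genes only per length of transcript. In the tumor library and with all annotated exons merged, Cd74 had 91.7 CPM per kilobase, H2-Eb1 56.9, H2-Aa 51.1, H2-Ab1 36.9, H2-DMb1 19.7, H2-DMa 4.25 and Ciita 0.708. With the exons of RefSeq transcripts alone, chosen after the data were seen, H2-Aa came first at 172 CPM per kilobase, followed by Cd74 at 109, H2-Ab1 at 78.1 and H2-Eb1 at 66.2. The order of the first 4 genes thus rested on the choice of transcripts. H2-DMb1 with 23.6, H2-DMa with 8.83 and Ciita with 1.01 CPM per kilobase kept their order. Reads assigned to H2-DMb1 thus exceeded those assigned to H2-DMa per kilobase on both scales. The size of this gap rested on the choice of transcripts. As described above, H2-DMa overlaps a gene on the opposite strand, and H2-DMb1 could be mixed with its close copy. Whether the dimer partners themselves were uneven was therefore not tested.

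To set the members beside all genes, a gene was called when its CPM plus 1 differed by more than 2-fold, among the 12728 genes whose mean reached 1 CPM. All 7 members passed this minimum, 4 of them through the tumor library alone. In tumor to 2D monoculture all 7 were called higher, against 14.8% of all genes (18.2% were lower), with a median log2 ratio of 4.51 (all genes -0.14). In spheroid to 2D monoculture 1 member, Cd74, was called higher, against 11.2% of all genes (17.9% were lower), and the median of the members was 0.12 (all genes 0.05). In 2D co-culture to 2D monoculture Cd74 was the 1 member called lower, against 9.51% of all genes, and 0 members were called higher, against 3.79%. The median of the members there was 0.20 (all genes 0.01). These comparisons share the 2D monoculture library. All 7 members were higher in tumor than in spheroid (27.6% of all genes) and than in 2D co-culture (20.9%, with 18.8% lower). Cd74 alone was higher in spheroid than in 2D co-culture (9.54% of all genes), and 0 members were lower (8.46%). The added 1 CPM hides differences of genes near 0, such as that of H2-Aa.

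The high levels of members in the tumor library came with reads of host cells. The 9 macrophage genes summed to 2164 CPM in the tumor and to between 10.7 and 30.01 CPM in the cultures, and all 9 were called higher in tumor than in 2D monoculture (14.8% of all genes), though 7 of them passed the minimum through the tumor alone. C1qa, C1qb and C1qc, which encode complement C1q, had 98.4 to 212 CPM per kilobase of merged exons in the tumor, above the 51.1 of H2-Aa. With the exons of RefSeq transcripts alone, C1qc at 158 CPM per kilobase fell below H2-Aa at 172. On that scale C1qa at 201 and C1qb at 212 stayed above H2-Aa. Ptprc, the pan-leukocyte gene CD45, had 49.5 CPM in the tumor and at most 0.0961 CPM in the cultures. Cd68, a lysosomal protein gene of macrophages, was like Cd74 lowest in the 2D co-culture, and had 27.5 CPM in the 2D monoculture, 3.69 in the 2D co-culture, 22.5 in the spheroid and 64.2 in the tumor. The 4 endothelial genes summed to 207 CPM in the tumor and to at most 0.376 CPM in the cultures, and all 4 passed the minimum through the tumor alone. The 9 fibroblast genes summed to 2728 CPM in the tumor, and 8 of 9 were called higher there than in the 2D monoculture (14.8% of all genes). Of these 8, 2 passed the minimum through the tumor alone. The 8 dendritic cell genes summed to 22.1 CPM in the tumor and 10.4 to 18.8 CPM in the cultures. Of the 4 that reached the minimum, 2 were called higher in tumor than in 2D monoculture (14.8% of all genes). Both of these, Cd209a and Itgax, passed the minimum through the tumor alone. Cd209a had 5.31 CPM in the tumor and at most 0.0175 CPM in the cultures, whereas Zbtb46 of the same list was lowest in the tumor, with 4.28 against 7.47 to 15.2 CPM. The 5 B cell genes summed to 2.94 CPM in the tumor and 0.302 to 0.815 CPM in the cultures. The 7 T cell genes summed to 7.26 CPM in the tumor and 0.491 to 1.41 CPM in the cultures. No gene of these lists reached a mean of 1 CPM, so none could be called. Melanocyte genes were abundant in all 4 libraries, and the 8 of the list summed to between 10642 and 18928 CPM. Of these, 1 of 8, the lineage factor Sox10, was called lower in tumor than in 2D monoculture (237 against 834 CPM), beside 18.2% of all genes. In the spheroid, 3 of 8 were called lower than in 2D monoculture (17.9% of all genes), among them the lineage factor Mitf with 70.3 against 416 CPM. In bulk RNA, more cells of a type and more RNA per cell cannot be told apart, nor can class II reads of host cells and of tumor cells. The part of host cells in the class II level of the tumor was not tested.

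In the spheroid and the 2D co-culture, the few reads of the class II chains stood near the share of the tumor level that many tumor genes showed. For this, 73 other genes with at least 5000 tumor reads and under 0.03% of the tumor level in the 2D monoculture were taken as a reference, after the data were seen. The median of these genes was 0.185% of the tumor level for 2D co-culture, with quartiles of 0.15% and 0.25%. For the spheroid it was 0.123%, with quartiles of 0.104% and 0.162%. H2-Aa was at 0.157% and 0.113%, H2-Ab1 at 0.194% and 0.124%, and H2-Eb1 at 0.134% and 0.159%. The counting interval of each of these 3 genes held the reference median in both libraries. The value of H2-Eb1 in the 2D co-culture lay below the lower quartile, however. In the 2D monoculture H2-Eb1 was at 0.0825%, above the limit of 0.03% set for the reference genes. Ptprc was at 0.194% and 0.148%. Cd74 was at 22.3% in the spheroid, 181 times the reference median, and at 0.533% in the 2D co-culture (0.431% to 0.652%), 2.88 times the median. H2-DMa was at 12.9% for 2D co-culture and 9.88% for spheroid, and H2-DMb1 at 14.3% and 13.8%. Ciita was at 0.129% in the 2D co-culture from 1 read and at 0.653% in the spheroid (0.239% to 1.43%). Where the trace of tumor genes in these libraries came from was not tested.

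**Figure D4:**
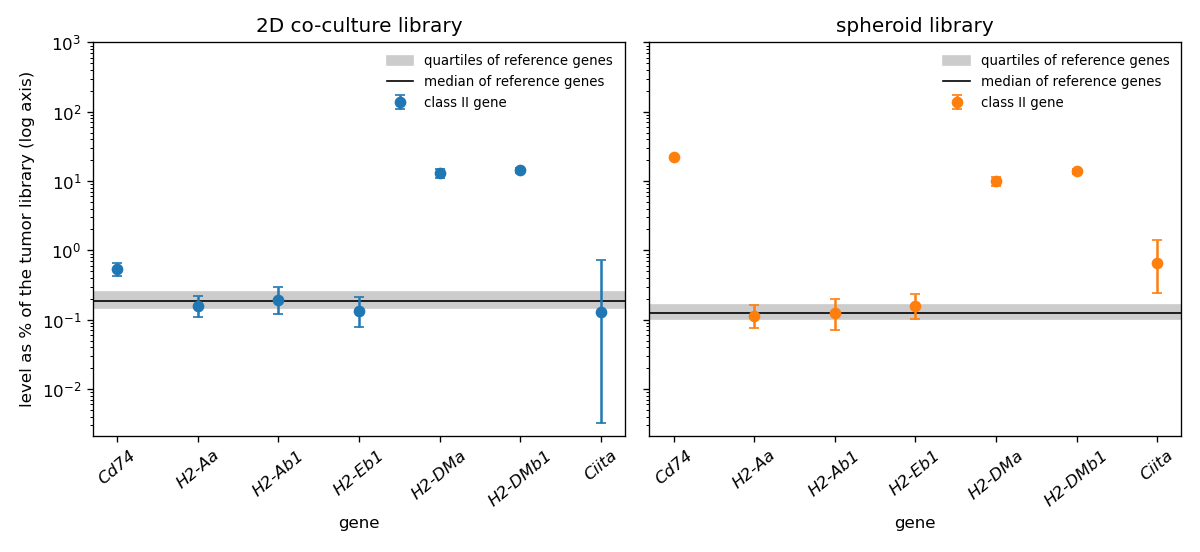
Level of each gene in the 2D co-culture (left) and spheroid (right) library as a percent of its level in the tumor library, on a log axis, with 95% exact intervals. The line and the grey band give the median and quartiles of 73 reference genes. The intervals of H2-Aa, H2-Ab1 and H2-Eb1 cross the line in both libraries, with H2-Eb1 below the band in the 2D co-culture, while Cd74 in the spheroid lies at 22.3%.

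The rest of the class II pathway was read from lists, each with its count over 2-fold. Of the 7 promoter factors, which include the RFX subunits, the NF-Y subunits and Creb1, 0 were called between tumor and 2D monoculture (14.8% of all genes were higher and 18.2% lower), with a median log2 ratio of -0.35. Against the spheroid, 1 of 7 was called higher in the tumor (27.6% of all genes), which was Creb1 with 91.7 against 29.0 CPM, and 3 were called lower (26.8%), among them Rfxap with 26.0 against 60.6 CPM. In the spheroid 1 of 7, the RFX subunit Rfxank, was called higher than in the 2D monoculture (11.2% of all genes), with 27.0 against 11.9 CPM. All 7 had at least 11.5 CPM in each culture. Among 7 endosomal processing genes, 3 were called higher and 1 lower in tumor than in 2D monoculture (14.8% and 18.2% of all genes). Ctss, 1 of these 3, passed the minimum through the tumor alone. In 2D co-culture 2 of 7 were called lower than in 2D monoculture (9.51% of all genes), namely the cathepsin genes Ctsb with 593 against 1369 CPM and Ctsh with 19.2 against 41.3 CPM. Ctss, the cathepsin that trims the invariant chain in professional presenting cells, had 239 CPM in the tumor and 0.0281, 0.515 and 0.235 CPM in the 2D monoculture, 2D co-culture and spheroid, a pattern like that of H2-Aa. Lgmn, an endosomal protease, had 293 CPM in the tumor and 79.2 to 128 CPM in the cultures, and Ctsd had 1148 CPM in the tumor and 2018 to 3309 CPM in the cultures. In the spheroid 0 of these 7 were called against the 2D monoculture. March1, a ligase that removes class II from the surface of presenting cells, had 8.63 CPM in the tumor and at most 0.0699 CPM in the cultures.

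Interferon gamma acts on Ciita through its receptor, JAK kinases and IRF1. Ifng itself had 63 reads in the tumor, with 2 reads in the 2D co-culture and 0 in each other culture. Of 7 measured signalling genes over the minimum, 4 were called higher in tumor than in 2D monoculture, among them Irf1 with 74.3 against 8.47 CPM, beside 14.8% of all genes. Against the 2D monoculture, 0 were called higher and 3 lower in the spheroid (17.9% of all genes lower), and 0 higher and 2 lower in the 2D co-culture (9.51%). Jak1, a kinase gene, had 185 CPM in the 2D monoculture against 45.8 with fibroblasts in 2D and 34.7 in spheroids. The 8 interferon gamma targets were all called higher in tumor than in 2D monoculture (14.8% of all genes), but 3 of them (Gbp5, Iigp1 and Cxcl9) passed the minimum through the tumor alone. In the spheroid 1 of the 8, the chemokine Cxcl10, was called higher than in the 2D monoculture (76.9 against 29.6 CPM, beside 11.2% of all genes) and 3 were called lower (17.9%), as for the GTPase gene Gbp2 with 0.602 against 5.005 CPM. In 2D co-culture 0 were called higher and 3 lower than in 2D monoculture (3.79% and 9.51% of all genes). The part of interferon signalling in the levels of the members was not tested.

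Class I presentation genes were compared because they share the interferon response with class II. Of 10, 9 were called higher in tumor than in 2D monoculture (14.8% of all genes), 2 of which passed the minimum through the tumor alone, and 3 were called higher in spheroid than in 2D monoculture (11.2%). In tumor to spheroid 8 were called higher and 1, Tapbp, lower (27.6% and 26.8% of all genes). The 3 were H2-K1, a class I heavy chain, with 191 against 44.1 CPM, the peptide transporter gene Tap2 with 27.3 against 7.02 CPM, and Tapbp, which encodes tapasin, with 176 against 61.6 CPM and 66.9 CPM in the tumor. None of the 10 was called in 2D co-culture to 2D monoculture, where H2-K1 had 34.6 CPM. Nlrc5, the class I counterpart of Ciita, had 24.2 CPM in the tumor and 1.03, 0.55 and 0.433 CPM in the 2D monoculture, 2D co-culture and spheroid. The immunoproteasome gene Psmb8 resembled the class II chains, with 50.2 CPM in the tumor and at most 0.122 CPM in the cultures.

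**Figure D5:**
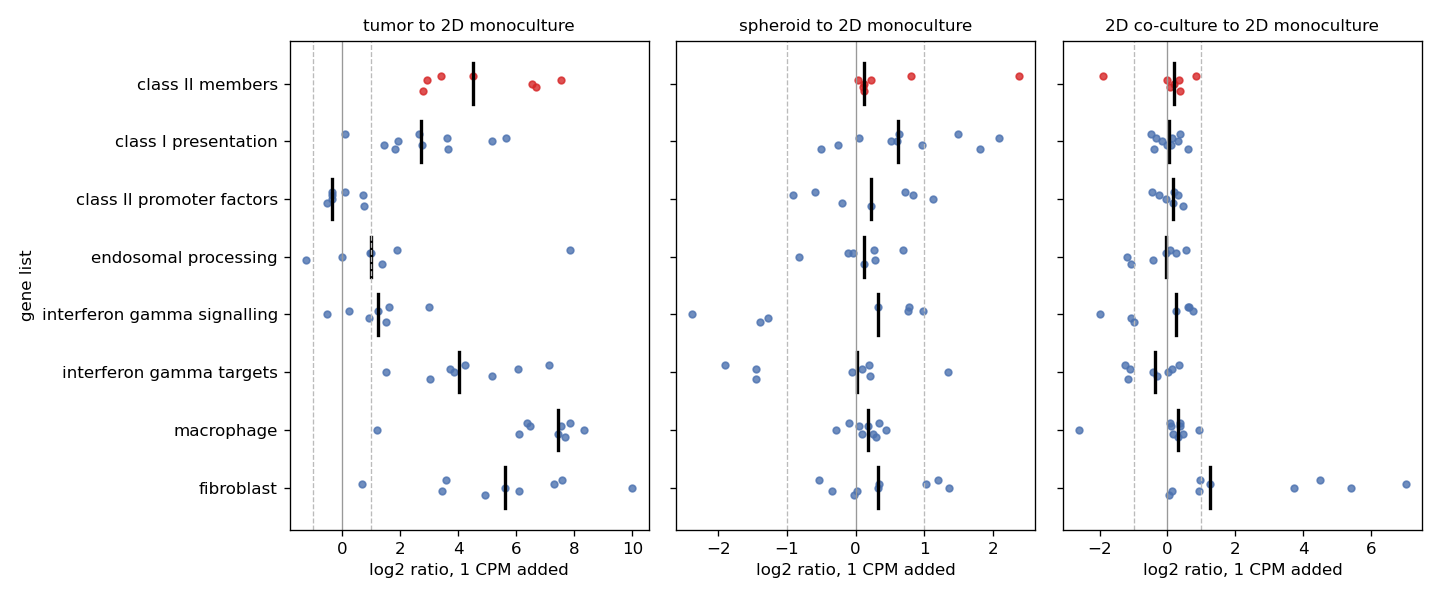
Log2 ratios to the 2D monoculture, with 1 CPM added, for genes of 8 lists that reached a mean of 1 CPM, with 1 point per gene, black bars for list medians and dashed lines at 2-fold. The class II genes (red) are all beyond 2-fold in the tumor, and Cd74 is the 1 point beyond it in the spheroid and, on the lower side, in the 2D co-culture.

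The gene patterns most like the members were sought among the 9583 genes whose mean reached 10 CPM, by the Euclidean distance of the 3 log2 ratios of a culture to the tumor (0.1 CPM added). The 10 genes closest to the median of the members were Rrad, Igtp, Laptm5, Gbp7, Fcer1g, Irf7, Psmb9, Clu, Itgb2 and Enpep, at distances of 1.20 to 1.95. That median represents the members poorly, as they lay 1.41 (Ciita) to 6.07 (H2-Aa) from it. Taken singly, after the data were seen, H2-Aa had close neighbours, H19, C1qc, Myh1, Fhl1 and F13a1, at distances of 0.26 to 0.42. The nearest to Cd74 were Myom1, Cox6a2, Ldb3, H2-T23 and Cbr2, at distances of 2.50 to 2.76. With only 4 libraries, each pattern holds 3 ratios.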

How the data were processed

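Poly(A)-selected RNA was sequenced in 4 libraries as paired-end reads. The authors deposited 1 table of whole read counts per gene symbol, without normalization. The processing notes of the submitters name Trimmomatic, STAR, featureCounts and the build mm10, with no versions or settings. Totals lay between 118896900 and 150028663 reads. In ratios of single genes a count of 0 was set at 3 reads, or 0.0185 to 0.0262 CPM depending on the library. CPM values were computed with TMM factors from edgeR 4.0.16 in R 4.3.3. DESeq2 1.42.0 size factors, upper quartiles and total counts were alternatives. Python 3.11.15, numpy 2.4.6, pandas 2.3.3, scipy 1.17.1 and matplotlib 3.10.9 were used. Intervals of levels are exact Clopper-Pearson intervals, and those of ratios were derived from exact binomial limits on how the reads split between both libraries. Ratios of single genes use no pseudocount, whereas calls and list medians add 1 CPM. Calls and intervals were tested on simulated counts with counting error only. The changes planted were 4-fold, in genes with higher 2D monoculture levels than any member had. Calls were therefore not tested at the levels of the members. Exon lengths and positions come from GENCODE M21 (GRCm38) and promoters from RefSeq (GRCm38.p6). The named genes are the members, the genes of fixed lists by counts with the highest or defining ones, and the 10 most similar patterns. The members and lists were chosen with earlier results of these data known. No replicate, and so no test across conditions, was available. The values of 1 gene of the lists are not reported here.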

Additional observations from a re-analysis of the deposited data

How the results depend on the processing

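No paired analysis was possible because there was 1 library per source. All 7 members were called higher in the tumor than in each culture under each scaling, pseudocount and fold run, and with a minimum mean of 10 CPM all 5 that reached it were; the direction of no called ratio changed. Medians, counts and levels per kilobase were taken as the same within 1.5-fold, and other values of single genes when inside their counting interval. By this interval rule 73 log2 ratios of single genes moved and 179 stayed the same. For CPM levels 19 moved and 65 stayed, and for percents of the tumor level 8 moved and 13 stayed. The median log2 ratio of the members moved from 8.32 to 5.82 (0.1 CPM added), 4.51 (1 CPM) and 9.23 (a correction for GC and length that was added with the data in view) for tumor to 2D monoculture, from 7.26 to 5.57, 2.89 and 8.13 for tumor to spheroid, from 9.01 to 7.39 and 6.34 (0.1 and 1 CPM) for tumor to 2D co-culture, and from 1.07 to 0.12 (1 CPM) for spheroid to 2D monoculture. With 0.1 CPM added, 3 members in place of 1 were called higher in spheroid, and 3 in place of 0 in 2D co-culture, than in 2D monoculture. At 4-fold, 0 members in place of 1 were called lower in 2D co-culture. The Cd74 ratio of spheroid to 2D monoculture lay between 1.97 and 2.69 in all settings, and that of tumor to spheroid between 2.13 and 3.19, highest with the correction for GC and length. The pseudocount lowers ratios of genes near 0 by construction, and for other moves the cause was not tested. Of the 10 most similar patterns, 2 remained with 1 CPM added and 6 with the mean of the members.

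Scaling shifted the median of all genes by up to 0.34 (tumor to spheroid, total counts). Genes called higher and lower numbered 1885 and 2322 for tumor to 2D monoculture, 2426 and 1577 with total counts and 2403 and 1542 with upper quartiles. They numbered 3517 and 3413 for tumor to spheroid (4334 and 2472 with total counts), and 2664 and 2388 for tumor to 2D co-culture (3247 and 1534, and 2933 and 1942 with upper quartiles). With a minimum mean of 10 CPM the genes called higher in the tumor fell to 685, 2095 and 1347 against 2D monoculture, spheroid and 2D co-culture. At 4-fold, 1228 were higher and 290 lower for tumor to 2D monoculture, 1793 and 984 for tumor to spheroid, and 1366 and 236 for tumor to 2D co-culture. Among the cultures, 4-fold left 163 of 1421 higher and 523 of 2278 lower for spheroid to 2D monoculture, 112 of 483 and 178 of 1210 for 2D co-culture to 2D monoculture, and 179 of 1214 and 154 of 1077 for spheroid to 2D co-culture. For 2D co-culture to 2D monoculture 785 were higher with 0.1 CPM added and 283 with the minimum of 10 CPM.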
